A study of Mus musculus with 3 samples.

Results

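The genes described here encode the nuclear subunits of the mitochondrial respiratory chain and of ATP synthase. They were found by symbol among the probe sets of a mouse expression array that carry 1 annotated gene: the Ndufa, Ndufb, Ndufc, Ndufs and Ndufv genes of complex I, Sdha to Sdhd of complex II, the Uqcr genes and Cyc1 of complex III, the Cox4 to Cox8 genes of complex IV, and the Atp5 genes of complex V. Ndufa4l2 and the Ndufaf assembly factors were left out. The rule found 81 of the 18193 named genes on the array, measured by 164 probe sets: 34 in complex I, 4 in complex II, 9 in complex III, 17 in complex IV and 17 in complex V. Each gene is given by its brightest probe set.

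RNA came from 3 primary cultures of C57BL/6 mouse pigment epithelium, from animals aged 6 to 8 weeks, with 1 array per culture. The iris (IPE) and ciliary body (CBPE) cultures grew in RPMI 1640 with 10% fetal bovine serum, and the retinal (RPE) culture grew in DMEM with 20% serum. All 3 were held without serum overnight before RNA was taken. Cytokeratin-positive cells were above 99% in IPE and above 95% in CBPE and RPE, the latter pair counted after 14 days. No such day is given for IPE, so time in culture cannot be told apart from tissue in comparisons with it. Whether the RNA of a culture came from 1 animal or several is not stated in the labels. With 1 array per culture no spread between replicates exists, so no test was run and every difference below is one between 2 arrays. RPE differs from the other pair in both tissue and medium, which cannot be told apart, and fewer cells of a type cannot be told apart from less RNA per cell in any of them.

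The chain passes electrons from NADH (complex I) and succinate (complex II) through ubiquinone, complex III and cytochrome c to oxygen at complex IV. Complexes I, III and IV pump protons across the inner membrane, and complex V lets them back to make ATP. Outside complex II, a few catalytic subunits are joined by many small accessory or supernumerary ones, and several catalytic subunits are made inside the mitochondrion. In the eye the pigment epithelia take up and move solutes and, in the retina, recycle photoreceptor membrane, work that draws on oxidative metabolism.

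Values are intensities in arbitrary units on a linear scale, and a gene counts as above the floor where its signal exceeds the median of the non-control probe sets of that array: 14.5 on IPE, 17.3 on CBPE and 16.8 on RPE. Of the 81 genes, 76 lay above the floor on all arrays, 3 on some (Cox4i2, Cox7c and Cox8b) and 2 on none (Ndufb4 and Cox7b2). The arrays share a mean but not a shape. The 99th percentile of intensity was 2408 on IPE, 3846 on CBPE and 3247 on RPE, and the added hybridisation controls had a geometric mean of 1239, 3192 and 1941. The 3′ to 5′ ratio of the Actb control was 1.5 on IPE, 2.26 on CBPE and 2.25 on RPE. The part of these gaps in the differences below was not tested. Results are given as deposited and after cyclic loess, which makes the difference between arrays level over the range of intensity. Melanin genes were present but unequal, and Tyrp1 read 1388, 67.2 and 550.0 on the IPE, CBPE and RPE arrays. Of 9 retinal pigment epithelium markers, 4 lay above the floor in IPE, 5 in CBPE and 4 in RPE, with summed signals of 674, 358 and 228. Rpe65, Lrat and Rgr were the 3 under the floor on all arrays, RPE included.

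Promoters of these genes are known as common targets of NRF1, of ETS-family factors such as GABP, and of YY1. RefSeq windows of 250 bases before to 50 bases after a gene start (GRCm38.p6) were matched by gene identifier for 66 of the 81 genes. The letters GCGC, any base and TGCGC (NRF1), CCGGAAG (ETS) and AAGATGGC (YY1) were searched on both strands. Each motif was counted on its own, so a base could belong to more than 1. NRF1 letters lay in 22.7% of the subunit genes, against 10.8% of the genes above the floor on an array and 5.19% of all genes with a window. ETS letters lay in 25.8%, against 18.5% and 9.93%, and YY1 letters in 13.6%, against 4.89% and 3.19%. At least 1 of the 3 was found in 36 of 66 subunit genes (54.5%), against 30.0% of the genes above the floor and 16.4% of all. The GC box GGGCGG was held by 42.4% of the subunit genes and by 66.5% of the genes above the floor, and TATAAA by 12.1% and 9.60%. Median GC content was 58.3% in the subunit windows and 60.3% in those of genes above the floor. These are matches of letters and say nothing of binding in these cultures.

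The 100 bases before the start are printed for 10 genes, 5′ to 3′ on the strand of the gene, with NRF1 or ETS letters in capitals. Ndufa8 (chr2:36049339-36049438), Sdha (chr13:74350241-74350340), Sdhd (chr9:50603850-50603949) and Atp5k (chr5:108434400-108434499) show NRF1 letters, and Sdhd both kinds. Ndufs3 (chr2:90904722-90904821), Uqcr11 (chr10:80406822-80406921), Cox6b1 (chr7:30626115-30626214) and Atp5h (chr11:115419920-115420019) show ETS letters. Ndufa4 (chr6:11907451-11907550) and Atp5md (chr19:47090648-47090747) are shown because they differed most between CBPE and IPE in intensity as deposited. Neither has any of the 3 motifs in these bases, though Atp5md has ETS letters starting 3 bases past the start. All 10 genes lie on the minus strand.
Ndufa8: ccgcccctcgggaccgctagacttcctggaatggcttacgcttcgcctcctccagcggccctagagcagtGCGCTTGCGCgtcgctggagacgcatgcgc
Sdha: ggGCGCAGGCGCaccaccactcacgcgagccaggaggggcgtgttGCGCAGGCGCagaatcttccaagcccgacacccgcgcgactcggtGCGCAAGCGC
Sdhd: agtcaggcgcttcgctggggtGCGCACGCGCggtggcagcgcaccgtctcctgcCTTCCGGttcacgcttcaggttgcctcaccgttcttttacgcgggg
Atp5k: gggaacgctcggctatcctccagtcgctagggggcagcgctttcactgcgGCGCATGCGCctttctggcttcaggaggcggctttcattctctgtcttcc
Ndufs3: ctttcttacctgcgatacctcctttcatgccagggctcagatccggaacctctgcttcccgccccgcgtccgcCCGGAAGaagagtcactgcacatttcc
Uqcr11: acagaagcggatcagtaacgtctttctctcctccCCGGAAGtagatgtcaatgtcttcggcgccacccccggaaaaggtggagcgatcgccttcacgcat
Cox6b1: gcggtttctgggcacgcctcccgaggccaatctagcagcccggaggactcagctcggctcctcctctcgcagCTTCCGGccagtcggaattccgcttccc
Atp5h: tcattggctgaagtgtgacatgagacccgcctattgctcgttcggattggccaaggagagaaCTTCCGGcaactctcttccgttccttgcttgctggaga
Ndufa4: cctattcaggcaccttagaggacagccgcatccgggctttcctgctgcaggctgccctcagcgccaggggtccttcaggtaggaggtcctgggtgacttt
Atp5md: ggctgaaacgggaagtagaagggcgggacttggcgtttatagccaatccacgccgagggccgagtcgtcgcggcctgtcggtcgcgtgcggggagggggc

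Most subunit genes had their lowest signal in the IPE culture. Over the 81 genes the median signal on the IPE array was 1438, that on CBPE 2360 and that on RPE 2325. Among the 76 genes above the floor on all arrays, 63 (82.9%) were lowest in IPE, against 38.6% of all genes above the floor on all arrays. After cyclic loess the same count was 53 (69.7%), against 42.6% of all genes.

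Between CBPE and IPE, 32 of the 79 measured subunit genes were at least 2-fold higher in CBPE and 3 at least 2-fold lower, where 11.7% and 12.5% of all measured genes passed these folds. At 1.5-fold they were 50 and 5, where 24.4% and 23.3% of all genes passed. Between RPE and IPE, 24 were at least 2-fold higher in RPE and 3 lower, where 9.86% and 10.5% of all genes passed, and at 1.5-fold 49 and 5, where 21.7% and 22.1% did. Between RPE and CBPE no subunit gene reached 2-fold either way, where 3.75% of all genes were higher and 4.26% lower. The first 2 comparisons share the IPE array, so they are not independent.

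The size of these differences depended on how the arrays were scaled. As deposited, the median log2 difference over the subunit genes was 0.86 for CBPE minus IPE and 0.78 for RPE minus IPE, against 0.04 and 0.02 over all genes. After cyclic loess it was 0.24 and 0.31, against 0.10 and 0.04, and 8 and 6 genes were 2-fold higher, where 12% and 9.95% of all genes were. These last counts are near or under the share of all genes, so the subunit genes passed 2-fold more often than all genes as deposited and not after loess, while their median kept its sign. With quantile scaling 9 genes were 2-fold higher in each comparison, where 13.3% and 11.2% of all genes were, and with equal array medians 20 and 10, where 7.36% and 6.28% were. Setting the array medians equal moved the median of all genes to -0.22 and -0.20, and that of the subunit genes to 0.60 and 0.57. For RPE minus CBPE the subunit median was -0.09 as deposited and 0.02 after loess. Of the 79 genes, 65 were higher in CBPE than in IPE as deposited and 54 after loess, and 70 and 59 were higher in RPE than in IPE. In each comparison the sign turned for 11.

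**Figure D1:**
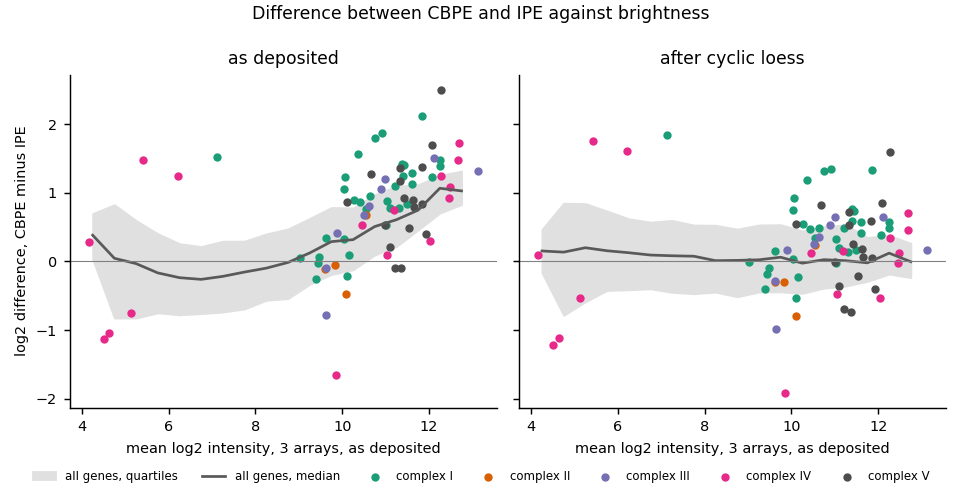
Log2 difference of CBPE minus IPE (vertical axis) against mean log2 intensity over the 3 arrays as deposited (horizontal axis), for values as deposited on the left and after cyclic loess on the right. Points are the 79 measured subunit genes coloured by complex, and the line and band are the running median and quartiles of all genes, which climb over the brighter genes on the left, with the median near 0 on the right.

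Over the whole array, bright genes were shifted toward CBPE against IPE and genes of middle intensity were not, as the plot against intensity shows. The subunit genes were therefore also read beside the 911 genes with a geometric mean of at least 1000. Of these, 26.9% passed 2-fold upward in CBPE against IPE and 1.98% downward, and 29 of the 61 subunit genes in that range were higher and 0 lower. For RPE against IPE the shares were 19.4% and 2.52%, and 22 of 61 subunit genes were higher and 0 lower. The median of the 61 was 0.93 in both comparisons, against 0.59 and 0.47 over the bright genes. After loess it was 0.35 and 0.38, against 0.01 and -0.01, and 5 and 4 of the 61 were 2-fold higher, where 8.59% and 6.61% of bright genes were. Across the 72 subunit genes with signals above 100 on all arrays, the log2 difference of CBPE minus IPE correlated with mean log2 intensity at Pearson's r = 0.62 as deposited and 0.31 after loess. Genes on the same arrays are not independent replicates, so these are descriptions.

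The only error the arrays allow is that between probe sets of 1 gene. Its pooled SD on the log2 scale was 0.22 for CBPE minus IPE and 0.21 for RPE minus IPE over the 37 subunit genes with several bright probe sets, against 0.49 and 0.45 over all such genes. Of 42 subunit genes with several measured probe sets, 34 had all sets on 1 side in CBPE minus IPE (32 higher, 2 lower) and 37 in RPE minus IPE (35 higher, 2 lower). No gene had 1 probe set at least 1.5-fold higher and another at least 1.5-fold lower in the same comparison. The spread between animals, between cultures and between hybridisations is not part of this error.

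**Figure D2:**
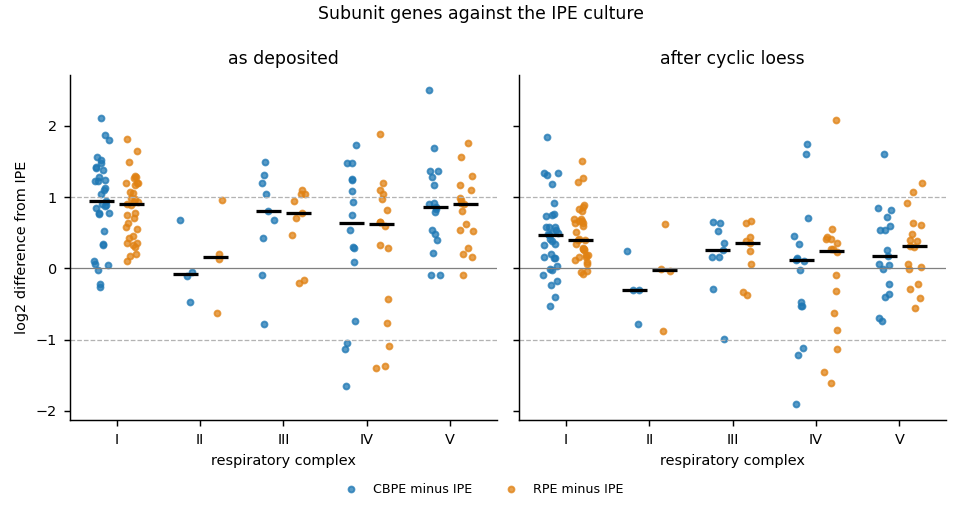
Log2 difference from the IPE array (vertical axis) of each of the 79 measured subunit genes, by complex (horizontal axis), for CBPE and for RPE, as deposited on the left and after cyclic loess on the right. Black bars are medians and dashed lines mark 2-fold; complex I has the highest median for CBPE in both panels and complex II the lowest.

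Complex I is the largest of the complexes. As deposited its median log2 difference was 0.95 for CBPE minus IPE, with 16 of 33 measured genes 2-fold higher, and 0.90 for RPE minus IPE, with 12 higher, beside 11.7% and 9.86% of all genes. After loess the medians were 0.47 and 0.40 and the counts 5 and 3, beside 12% and 9.95% of all genes. No complex I gene was 2-fold lower in either culture, where 12.5% and 10.5% of all genes were as deposited.

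Ndufa4, a subunit that carries a complex I name and is now assigned to cytochrome c oxidase, had signals of 1488, 6454 and 5237.5 in IPE, CBPE and RPE. By its name it is included in the complex I medians and counts given here. Against IPE the difference was 4.34-fold in CBPE and 3.52-fold in RPE, and its log2 differences after loess were 1.34 and 1.21. Ndufa6, an accessory subunit of the matrix arm, read 936, 3418 and 2260.5 in IPE, CBPE and RPE, a 3.65-fold and a 2.42-fold difference from IPE. Both genes were high in CBPE and RPE and low in IPE.

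Ndufb2, an accessory subunit of the membrane arm, read 779.7 in IPE, 2717 in CBPE and 2451 in RPE. Ndufa5, of the matrix arm, read 694 in IPE, 2044 in CBPE and 1589 in RPE. Ndufb1, of the membrane arm, read 73.0 in IPE, 209.8 in CBPE and 177.7 in RPE. In all 3 genes IPE was lowest and CBPE highest, and all were past 2-fold in CBPE against IPE under each of the 4 scalings (as deposited, equal medians, quantile and loess).

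Other accessory genes were lowest in IPE too, with CBPE or RPE highest. Ndufa3 read 2585 in IPE, 7175 in CBPE and 6320 in RPE. Ndufa13, also known as the cell death regulator GRIM-19, read 2497, 6521 and 7061. Ndufb11 read 1820.0, 3964 and 4168, and Ndufs4, whose loss causes a Leigh-like disease, 667, 1379.9 and 1247. In these 4 genes the CBPE and RPE signals lay within 1.5-fold of each other and both lay above IPE. Ndufa1, Ndufa2, Ndufb3, Ndufb5 and Ndufc2 exceeded IPE by 2.13-fold to 2.64-fold in CBPE and by 1.85-fold to 2.26-fold in RPE. Another bright probe set of Ndufc2 gave 1.78-fold and 1.61-fold.

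The core subunits, which include the carriers of the flavin and iron-sulfur centres, were less uniform. The 6 core genes read here had a median of 0.20 for CBPE minus IPE and 0.39 for RPE minus IPE, against 1.05 and 0.94 over the 27 other measured genes of complex I. After loess the core medians were 0.01 and 0.22 and the others 0.49 and 0.51. Under equal medians the core median for CBPE minus IPE was -0.06.

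Within the core, Ndufv2 and Ndufs8 stood apart from the rest. Ndufv2, an iron-sulfur protein of the NADH-oxidising module, read 1461.5 in IPE, 3912.5 in CBPE and 3351 in RPE, 2.68-fold and 2.29-fold above IPE. Ndufs8, an iron-sulfur protein next to the quinone site, read 1684, 3983 and 2892, 2.36-fold and 1.72-fold above IPE. The other Ndufs8 probe sets with signals above 100 put RPE above CBPE instead, with RPE at 2.24-fold to 3.24-fold over IPE. Ndufs1, the large iron-sulfur subunit, read 493, 509 and 555.5, and its probe set placed the 3 cultures within 1.13-fold.

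No other core gene reached 2-fold between any 2 cultures. Ndufv1, which binds NADH and flavin, read 644 in IPE, 539 in CBPE and 886 in RPE, so CBPE was lowest and RPE highest, 1.64-fold apart. The other Ndufv1 probe sets put IPE lowest and RPE highest, with RPE 1.34-fold and 1.28-fold above CBPE. Ndufs7, which holds the last iron-sulfur centre, read 652 in IPE, 683 in CBPE and 803 in RPE. Ndufs3 read 905 in IPE, 1139 in CBPE and 1136 in RPE. Ndufs3 and Ndufs7 were lowest in IPE by small margins. Of the accessory genes, Ndufa10 (683, 671 and 732) and Ndufa8 (1112, 958 and 1282) were near equal too. Ndufb4 was under the floor everywhere.

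**Figure D3:**
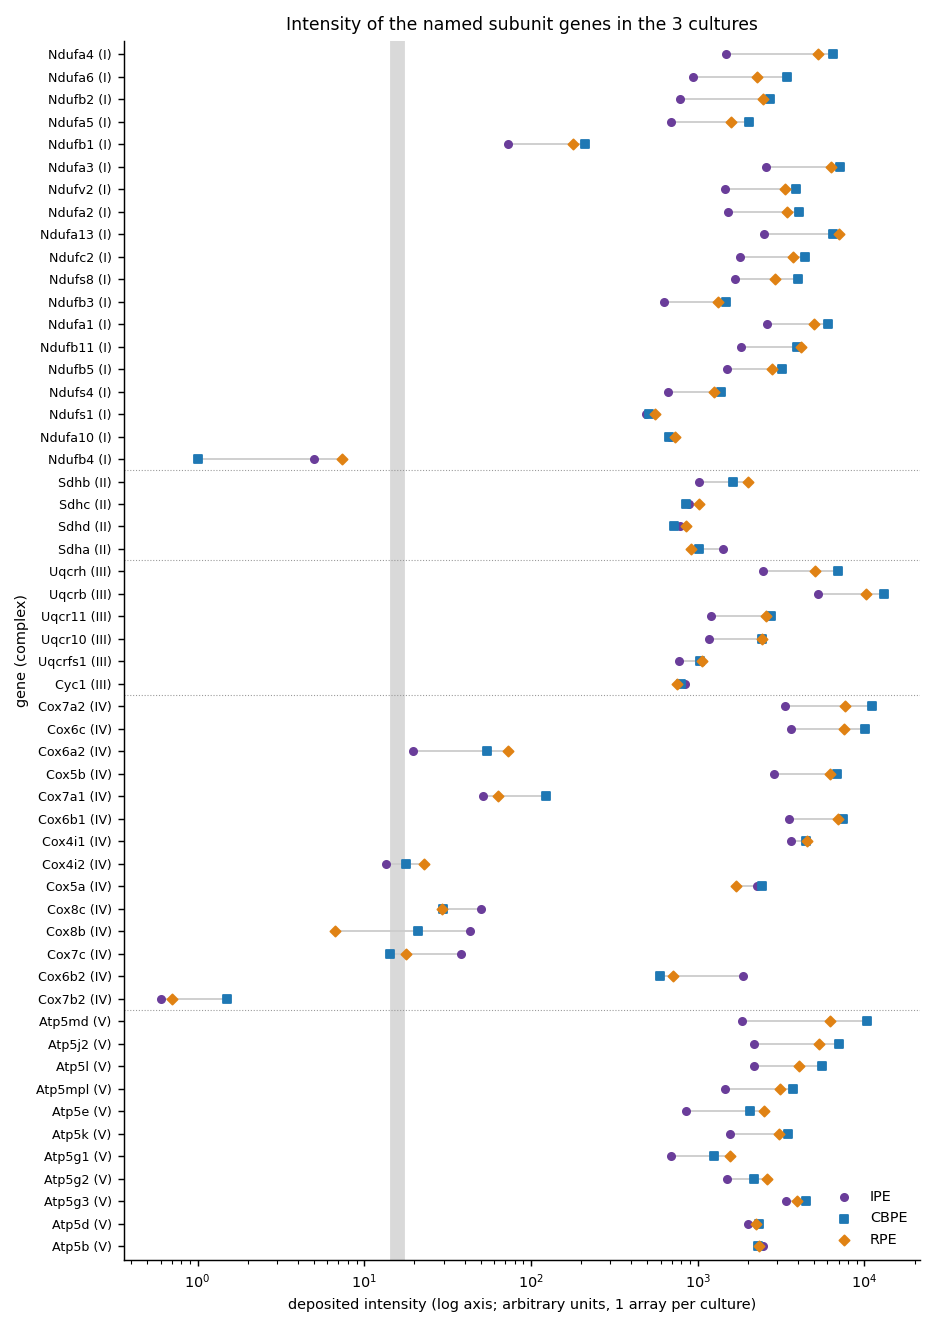
Deposited intensity (horizontal log axis, arbitrary units, 1 array per culture) of the named subunit genes, grouped by complex in brackets, in IPE (circles), CBPE (squares) and RPE (diamonds). The grey band spans the floors of the 3 arrays, 14.5 to 17.3; in most genes IPE lies to the left, while among others Sdha, Cox6b2, Cox7c, Cox8b and Cox8c have IPE at the right.

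Complex II, succinate dehydrogenase, has no mitochondrially encoded subunit and takes part in both the chain and the citric acid cycle. Its median log2 difference was -0.08 for CBPE minus IPE and 0.16 for RPE minus IPE, and -0.30 and -0.02 after loess, so the RPE direction turned. No gene of the 4 reached 2-fold. Sdha, the flavoprotein that oxidises succinate, read 1412 in IPE, 1017 in CBPE and 915 in RPE, 1.39-fold and 1.54-fold higher in IPE. The other bright Sdha probe set gave 1.30-fold and 1.12-fold. Sdhb, the iron-sulfur subunit, read 1023 in IPE, 1631 in CBPE and 1994 in RPE, with IPE lowest. The catalytic pair thus lay on opposite sides, as deposited and after loess (Sdha -0.79 and -0.88, Sdhb 0.24 and 0.62 on the log2 scale).

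The membrane anchors Sdhc and Sdhd were near equal by their brightest probe sets. Sdhc read 884 in IPE, 851 in CBPE and 1014.5 in RPE. Sdhd read 779 in IPE against 721 in CBPE and 851 in RPE. After loess their log2 differences from IPE were -0.30 and -0.31 in CBPE and -0.01 and -0.04 in RPE.

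Complex III, which takes electrons from ubiquinol to cytochrome c, had a median of 0.80 for CBPE minus IPE (4 of 9 genes 2-fold higher) and 0.77 for RPE minus IPE (3 of 9). The shares of all genes 2-fold higher were 11.7% and 9.86%. After loess the highest log2 differences in complex III were 0.65 and 0.67, both in Uqcr11 and under 2-fold. Its small subunits and its catalytic and core subunits were then read apart, a grouping chosen after the values were seen. The 5 small subunits had medians of 1.19 and 1.04, and 0.53 and 0.38 after loess. The 4 catalytic and core subunits had medians of 0.17 and 0.15, and -0.06 and -0.04 after loess, so their direction turned.

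Uqcrh, the hinge protein at cytochrome c1, read 2463 in IPE, 6958 in CBPE and 5057 in RPE, 2.83-fold and 2.05-fold above IPE. The other Uqcrh probe set gave 1.43-fold and 1.84-fold, with RPE highest. Uqcrb, a small subunit at the quinone site, read 5298, 13157 and 10166, and its 2.48-fold difference in CBPE was 0.16 on the log2 scale after loess. Uqcr11 read 1201, 2750.1 and 2576, and Uqcr10 1176, 2432 and 2433. In each of the 4 genes IPE was lowest.

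The genes of the redox centres showed no such gap. Cyc1, cytochrome c1, read 840.0 in IPE, 789 in CBPE and 749 in RPE. Uqcrfs1, the Rieske iron-sulfur protein, read 771 in IPE, 1032 in CBPE and 1063 in RPE. Of the core proteins, Uqcrc1 read 1003, 581 and 868 and Uqcrc2 1043, 1664 and 1779, so the core pair lay on opposite sides of IPE.

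Complex IV, cytochrome c oxidase, had genes on both sides of IPE. Over its 16 measured genes the median was 0.64 for CBPE minus IPE, with 6 genes 2-fold higher and 3 lower, and 0.62 for RPE minus IPE, with 4 higher and 3 lower. The shares of all genes were 11.7% higher and 12.5% lower in CBPE, and 9.86% and 10.5% in RPE. Genes are placed by symbol here, so Cox7a2l is counted in complex IV and Ndufa4 is not. After loess the Cox genes past 2-fold upward were the dim Cox6a2 and Cox7a1 in CBPE, and Cox6a2 in RPE. The bright Ndufa4 was past 2-fold after loess in both (1.34 and 1.21 on the log2 scale). The 9 ubiquitous subunits had medians of 0.93 and 0.82, and 0.12 and 0.23 after loess. The 6 measured isoforms known from muscle, lung or testis had medians of -0.23 and -0.24, and -0.21 and -0.09 after loess, but 3 were higher and 3 lower than IPE in each comparison, and most were dim. Some ubiquitous genes lay apart from their group as well.

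Among the ubiquitous subunits, Cox7a2 read 3365 in IPE, 11122 in CBPE and 7685 in RPE, a 3.31-fold and a 2.28-fold difference. Cox6c read 3644, 10159.8 and 7543, and Cox5b, which binds zinc, 2880.0, 6837 and 6189. Cox6b1, at the interface of the oxidase dimer, read 3544, 7496 and 6931. In these 4 genes IPE was lowest, and after loess the differences in CBPE were between 0.12 and 0.70 on the log2 scale. Other bright probe sets gave smaller differences of CBPE from IPE for Cox5b, 1.58-fold to 1.65-fold, and for Cox6b1, 1.56-fold.

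Cox4i1 and Cox5a, which form an early pair in assembly of the oxidase, did not share that difference. Cox4i1 read 3613 in IPE, 4456 in CBPE and 4526 in RPE, higher than IPE as deposited and lower after loess (-0.53 and -0.32). Cox5a read 2273 in IPE, 2420.1 in CBPE and 1692 in RPE, with CBPE higher than IPE as deposited and lower after loess (-0.47). Cox7c, a small ubiquitous subunit with a dim probe set here, read 37.9 in IPE, 14.2 in CBPE (under the floor) and 17.8 in RPE. Against the CBPE floor it counted as 2-fold lower. Against the highest control for absent bacterial transcripts on that array, 20.2, it was at least 1.88-fold lower.

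Of the restricted isoforms, Cox6b2, known from testis, was the bright exception. It read 1882 in IPE, 598 in CBPE and 715 in RPE, 3.15-fold and 2.63-fold higher in IPE, and the difference passed 2-fold under all 4 scalings. It rests on 1 probe set. Its ubiquitous partner Cox6b1 lay the other way as deposited and after loess, lower in IPE than in either culture.

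The muscle isoforms were dim. Cox6a2 read 19.7 in IPE, 54.7 in CBPE and 72.7 in RPE, 2.78-fold and 3.69-fold above IPE. Cox7a1 read 51.9, 122.6 and 63.5, with CBPE highest, and Cox8b 43.3, 21.0 and 6.7, the last under the floor, so IPE was at least 2.58-fold higher than RPE. These muscle isoforms thus did not share an order of the cultures. Of 20 skeletal muscle markers, 4 lay above the floor in IPE, 11 in CBPE and 15 in RPE, with summed signals of 242, 1755 and 1809.7; Ckm, Myod1 and Myog were under it on all 3 arrays. The part of these markers in the isoform values was not tested.

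Cox4i2, an isoform known from lung and induced by low oxygen, read 13.5 in IPE (under the floor), 17.7 in CBPE and 22.7 in RPE. Cox8c, known from testis, read 49.9, 29.8 and 29.3, 1.67-fold and 1.70-fold higher in IPE. Cox7b2 read 0.60, 1.5 and 0.70, under the floor everywhere.

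Complex V had a median of 0.86 for CBPE minus IPE (6 of 17 genes 2-fold higher) and 0.90 for RPE minus IPE (5 of 17), beside 11.7% and 9.86% of all genes. After loess the complex V genes past 2-fold upward were Atp5md in CBPE, and Atp5md and Atp5e in RPE. Its parts differed. The 5 genes of the catalytic head and its central stalk had medians of 0.22 and 0.29 as deposited and -0.36 and -0.21 after loess, so their direction turned. The 4 genes of the peripheral stalk had medians of 0.87 and 0.58, and 0.12 and 0.04 after loess. The 6 genes listed for the membrane part had medians of 1.01 and 0.94, and 0.54 and 0.43 after loess. Atp5md and Atp5mpl, also in the membrane, were in none of these 3 lists.

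Atp5md, a small membrane subunit also known as DAPIT that helps enzyme dimers form, had the widest difference of all subunit genes as deposited. It read 1845 in IPE, 10437.5 in CBPE and 6244 in RPE, 5.66-fold and 3.38-fold above IPE and 1.67-fold higher in CBPE than in RPE. After loess the log2 differences from IPE were 1.60 and 1.07. These were narrower than those of Ndufb1 (1.84 and 1.51), Cox6a2 (1.75 and 2.08) and Cox6b2 (-1.91 and -1.61). Atp5mpl, another small membrane subunit, read 1457, 3747 and 3120.2, 2.57-fold and 2.14-fold above IPE.

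The membrane subunits Atp5j2, Atp5l and Atp5k (subunits f, g and e) followed the same order. Atp5j2 read 2173 in IPE, 7020.3 in CBPE and 5324 in RPE. Atp5l read 2165, 5599 and 4040.3, and Atp5k 1559, 3507.5 and 3081. In all 3 IPE was lowest and CBPE highest.

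Atp5g1, Atp5g2 and Atp5g3 encode 1 and the same mature subunit c of the proton-driven ring, with different import sequences. Atp5g1 read 693 in IPE, 1258 in CBPE and 1564 in RPE, 1.81-fold and 2.26-fold above IPE. Atp5g2 read 1496, 2169.8 and 2619.8, and Atp5g3 3400.2, 4482 and 3923. After loess Atp5g1 kept its direction in both cultures (0.54 and 0.92), Atp5g2 was at -0.01 and 0.38, and Atp5g3 turned to -0.41 and -0.42.

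In the head, Atp5b, the catalytic beta subunit, read 2469 in IPE against 2312 in CBPE and 2325 in RPE, the 3 within 1.07-fold. Atp5a1, the alpha subunit, read 2512, 2360 and 3066. Atp5d, the delta subunit, read 2006, 2332 and 2248, above IPE as deposited and below it after loess. The exception in this group was Atp5e, the epsilon subunit, which read 847 in IPE, 2052 in CBPE and 2508 in RPE, 2.42-fold and 2.96-fold above IPE. Atp5c1, the gamma subunit, was 1.72-fold and 1.95-fold above IPE.

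Under all 4 scalings, 7 genes exceeded IPE by at least 2-fold in CBPE: Ndufa4, Ndufa5, Ndufa6, Ndufb1, Ndufb2, Cox6a2 and Atp5md. For RPE against IPE these were 6: Ndufa4, Ndufb1, Ndufb2, Cox6a2, Atp5e and Atp5md. Both sets rest on the same IPE array. Cox6b2 and Cox7c were 2-fold lower in CBPE under every scaling, Cox7c against the floor, and Cox6b2 and Cox8b were 2-fold lower in RPE.

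**Figure D4:**
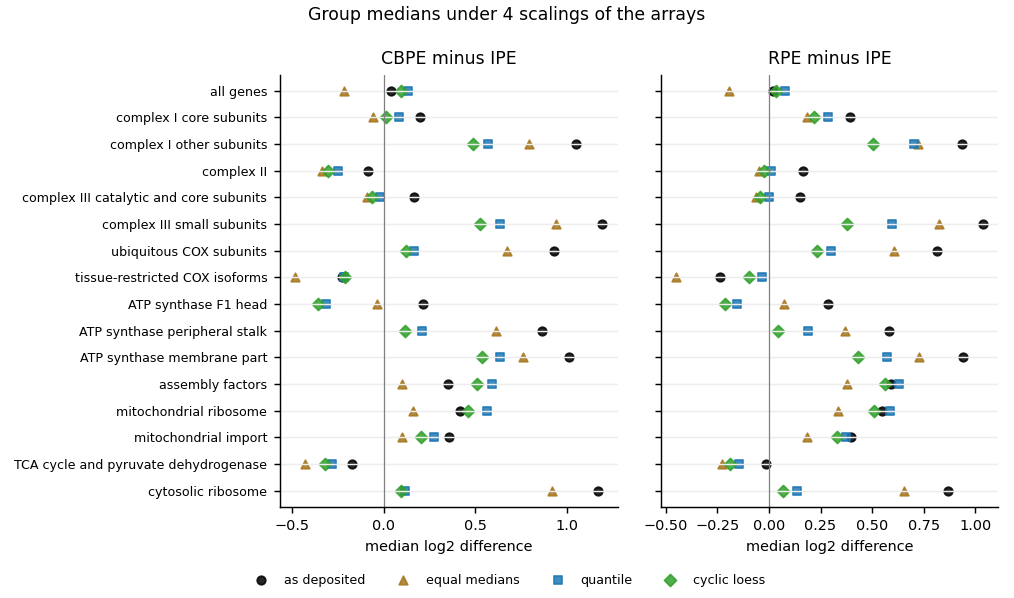
Median log2 difference (horizontal axis) of groups of subunit genes and of other gene lists (vertical axis) under 4 scalings of the arrays, for CBPE minus IPE on the left and RPE minus IPE on the right. The accessory subunits of complex I, the small subunits of complex III and the membrane part of ATP synthase lie right of 0 under every scaling, and the cytosolic ribosome moves from 1.17 to 0.09 in the left panel.

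The RPE and CBPE arrays lay closer to each other in these genes than either lay to IPE. At a 1.5-fold limit, 1 gene was higher in RPE than in CBPE and 3 were lower, where 12.7% and 13.3% of all genes passed. Medians by complex, RPE minus CBPE, were -0.15, 0.25, -0.08, -0.07 and -0.05 for complexes I to V.

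Other genes of mitochondria were read from lists. Of 42 measured assembly factors of the complexes, 9 passed 2-fold upward in CBPE against IPE and 2 downward, with a median of 0.35 as deposited and 0.51 after loess. In RPE against IPE, 9 of 43 were higher and 0 lower, with medians of 0.59 and 0.56. The shares of all genes were 11.7% higher and 12.5% lower in CBPE, and 9.86% and 10.5% in RPE. Cox16, which helps build complex IV, read 206 in IPE, 822 in CBPE and 559.8 in RPE. Coa6, of the copper pathway of complex IV, read 249, 890.4 and 718, and Sdhaf4, which helps load the flavin subunit of complex II, 457, 1614 and 1326. All 3 were lowest in IPE, Sdhaf4 beside an Sdha signal that was highest there.

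The mitochondrial ribosome, which makes the subunits encoded in mitochondrial DNA, had a median of 0.41 for CBPE minus IPE and 0.55 for RPE minus IPE over 76 genes, and 0.46 and 0.51 after loess. Of these, 15 and 19 were 2-fold higher and 1 and 0 lower, where 11.7% and 9.86% of all genes were higher and 12.5% and 10.5% lower. Mrpl33 read 149 in IPE, 618 in CBPE and 503 in RPE. Mrpl32 read 285, 1067 and 859. ND5, a complex I subunit that those ribosomes make, read 3753.5 in IPE against 6034 in CBPE and 4729 in RPE, and its log2 differences turned from 0.68 and 0.33 as deposited to -0.20 and -0.35 after loess. The cytosolic ribosome had higher medians as deposited, 1.17 and 0.87 over 40 genes, which became 0.09 and 0.07 after loess.

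Citric acid cycle and pyruvate dehydrogenase genes did not share the difference. None of 16 measured genes reached 2-fold in either comparison, and the medians were -0.17 for CBPE minus IPE and -0.01 for RPE minus IPE, and -0.32 and -0.19 after loess. Cytochrome c itself, Cycs, which carries electrons from complex III to complex IV, read 1324 in IPE, 4150.1 in CBPE and 2006.5 in RPE, 3.13-fold and 1.52-fold above IPE. Of 21 measured import genes, 5 were 2-fold higher and 2 lower in CBPE against IPE (median 0.36, and 0.20 after loess), and 4 were higher and 1 lower in RPE (0.40 and 0.33). The shares of all genes were 11.7% higher and 12.5% lower in CBPE, and 9.86% and 10.5% in RPE. Timm8b read 588 in IPE against 2236 in CBPE and 1542 in RPE, and Tomm7 518, 1675 and 1523, while Tomm40, the channel of the outer membrane, read 272, 107 and 121, highest in IPE.

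Regulators of mitochondrial gene expression were mixed. Of 20 measured in CBPE against IPE, 2 were 2-fold higher and 4 lower, and of 19 in RPE against IPE, 2 were higher and 3 lower. Among all genes 11.7% were higher and 12.5% lower in CBPE, and 9.86% and 10.5% in RPE. Ppargc1b, a coactivator of mitochondrial genes, read 58.6 in IPE, 2.1 in CBPE (under the floor) and 18.8 in RPE, at least 2.90-fold and 3.12-fold higher in IPE. Gabpa, the ETS-family subunit of GABP, read 312 in IPE, 127 in CBPE and 166 in RPE, 2.46-fold and 1.88-fold higher in IPE. Tfb1m, a methyltransferase of the mitochondrial ribosome, read 54.4, 175 and 195.5, the other way. Nrf1 read 31.8, 38.1 and 45.3 and Yy1 802, 677 and 608, neither 2-fold apart between any 2 cultures.

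The subunit genes were also divided by their 2-fold difference as deposited, with no test. Of the 27 genes with a window that were 2-fold higher in CBPE than in IPE, 13 held NRF1, ETS or YY1 letters, and of the 39 others 23 did. NRF1 letters lay in 3 of the 27 and 12 of the 39, ETS letters in 8 and 9, and YY1 letters in 3 and 6. The 39 include Ndufb4, which held NRF1 letters, and Cox7b2. Both were under the floor on all arrays, so neither had a measured difference. Sdha, with 3 NRF1 matches in the printed bases, was lower in CBPE than in IPE, and Atp5k, with NRF1 letters too, was higher.

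Markers of other cell types also differed between the arrays. Summed signals of 15 macrophage and leukocyte markers were 414 in IPE, 2594 in CBPE and 591 in RPE, with 7, 11 and 9 above the floor; C1qa, C1qc, Itgam and Ptprc were under it on all arrays. Those of 12 fibroblast markers were 27739, 52764 and 42214, with 11, 12 and 12 above it. Those of 13 pericyte and smooth muscle markers were 11151, 27790.4 and 18082, with 8, 11 and 10 above it. Those of 14 pigment epithelium markers ran the other way, at 6235, 1227 and 2046. Those of 12 endothelial markers were 991, 1847 and 487, with 6, 10 and 5 above the floor and Vwf under it everywhere. Those of 8 brown adipocyte markers were 3535, 272 and 263, nearly all from Dio2 in IPE, with Adipoq, Cidea, Elovl3 and Ucp1 under the floor on all arrays. The macrophage, fibroblast and pericyte sums were thus lowest in IPE and highest in CBPE, and the pigment epithelium, endothelial and brown adipocyte sums were not. All these sums are of deposited intensities, so the shift of bright genes toward CBPE is not taken out of them. The part of the markers in the subunit values was not tested.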

How the data were processed

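The deposited table holds 1 intensity per probe set and array for 3 arrays; neither the software nor the way probes were summarised is stated in the labels or the table. The values show that the authors scaled each intensity column to a common 2% trimmed mean of about 100, with no further matching between arrays. Of 45101 probe sets, 64 controls were left out, 34958 had 1 annotated gene, 932 had several and 9160 were not listed in the annotation of the platform. Genes were named by that annotation. Signals were raised to the floor (50th percentile of non-control probe sets of the array), put on the log2 scale and subtracted between arrays; a gene under the floor on both arrays was not measured.

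The members and lists were chosen with earlier results of these data known. Named genes were those at least 2-fold different, the widest and narrowest of each complex, those under the floor, the restricted COX isoforms, the subunit c genes and complex II. The other core subunits, Ndufa8, Uqcrc1, Uqcrc2, Atp5a1, Atp5c1 and the complex III grouping were added after their values were seen, as were ND5, Nrf1 and Yy1. Up to 3 genes were named from other lists, with Gabpa also added. Quantile, equal-median and cyclic loess scalings (limma 3.58.1, R 4.3.3), other floors and other choices of probe set were alternatives. The 2-fold calling step was tested on simulated data. Tables were handled in Python 3.11.15 with pandas 2.3.3 and numpy 2.4.6. The number of arrays limits the precision.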

Additional observations from a re-analysis of the deposited data

How the results depend on the processing

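With 1 array per culture, no array could be left out. No paired analysis was possible because each group has 1 sample and no test was run. Alternatives were quantile, equal-median and cyclic loess scaling, a floor at the 60th percentile, a fixed floor of 100, no floor, the mean of probe sets, probe sets without shared suffixes, members above 100, current symbols, and complexes reassigned; members with a geometric mean of at least 1000 were added after seeing the data. Of 252 alternative medians of members 239 moved by less than the SD between probe sets over all genes (0.49, 0.45 and 0.29), and 209 by less than the smaller SD over the members themselves. These SDs are of single probe sets, so they are a wide limit for a median over many genes. For CBPE minus IPE, the fall of the complex I median after loess, given above, lay under the all-gene limit. None of the 21 medians with current symbols could move, since no member symbol changed. Of 144 counts of members 105 stayed within 1.5 times. The scalings made the widest changes. They are built to take out differences that run with intensity or with the centre of the array, and which scaling is nearer the RNA content was not tested.

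The median over all members for CBPE minus IPE was 0.24 after loess and 0.31 after quantile scaling, and for RPE minus IPE 0.31 after loess. Less that of all genes, it was 0.15 and 0.18, and 0.28. For CBPE minus IPE, after loess and quantile scaling in turn, complex IV was at 0.11 and 0.10 and complex V at 0.18 and 0.27, and complex III was at 0.26 after loess. For RPE minus IPE after loess, complex I was at 0.40 and complex V at 0.31. The complex II median for RPE minus IPE changed sign, to -0.02 after loess and -0.05 with equal medians.

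Members 2-fold higher in CBPE than in IPE numbered 8 after loess, 9 after quantile scaling and 20 with equal medians, against 32. For RPE against IPE they numbered 6, 9 and 10, against 24. Members 1.5-fold higher numbered 20 after loess and 27 after quantile scaling against 50 in CBPE, and 23 and 26 against 49 in RPE. Members 2-fold lower numbered 1 in each comparison with IPE under a fixed floor, a floor at the 60th percentile, or signals above 100, and 0 with a geometric mean of at least 1000, against 3, since the other 2 are dim. Members 1.5-fold lower in CBPE (5) numbered 2 under a fixed floor and above 100, 3 by mean of probe sets and 0 at 1000; in RPE (5) they numbered 2, 2, 2 and 1. Between RPE and CBPE, members 1.5-fold higher (1) numbered 2 after loess, with equal medians and with no floor, and 0 by mean of probe sets and at 1000; those 1.5-fold lower (3) numbered 1 after loess and quantile scaling and 5 by mean of probe sets and with no floor. Members 2-fold higher there (0) numbered 1 with no floor, and 2-fold lower (0) numbered 1 after loess, quantile scaling and no floor.

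Of the 252 medians 18 changed sign, and of 1089 list medians 60, among them the ATP synthase head (0.22 to -0.31 after quantile scaling for CBPE minus IPE). In 3 of the 60 the median had been at least as large as the all-gene SD: ND5 for CBPE minus IPE was -0.28 after quantile scaling and -0.20 after loess, and brown adipocyte markers for RPE minus IPE went from -0.58 to 0.22 with no floor. Ucp1, which defines brown adipocytes, was under the floor on all arrays.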
